A study of Mus musculus with 9 samples.

Results

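Blood monocytes were compared between mice with an acute neuromyelitis optica (NMO)-like brain lesion and normal mice. The groups were NMO_Bl_mono and Nor_Bl_mono, with 3 libraries each, which were 6 of the 9 libraries of the series. All mice were female, wild-type C57BL/6N and 12 weeks old. NMO mice had received antibody purified from patients (NMO-IgG) together with human complement in the right striatum under anaesthesia, and blood was taken on day 1. Normal mice were untreated and had neither an injection nor control IgG, so the antibody, the complement, the anaesthesia and the surgery cannot be told apart in this comparison. Each library was made from the pooled cells of 5 mice, and the monocytes were sorted as CD45+ CD11b+ P2ry12- Ly6C high Ly6G- cells from density-gradient mononuclear cells. The comparison covered the 9265 of 23238 gene symbols that held 10 or more counts in at least 3 of the 6 libraries. Changes in such bulk samples can come from fewer cells of a type or from less RNA per cell, which cannot be told apart.

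NMO is an autoimmune disease in which antibodies against the water channel AQP4 bind astrocytes and fix complement. Classical Ly6C-high monocytes leave the bone marrow through the chemokine receptor Ccr2, circulate briefly and enter inflamed tissue, where they become macrophages. Non-classical monocytes depend on Nr4a1, carry Cx3cr1 and patrol the vessel wall. The comparison asks whether circulating monocytes of lesioned mice differed from those of normal mice.

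Total counts were 7584649 to 9859847 per library, and the ribosomal RNA gene Rn45s held 28.4% to 43.6% of them. NMO_Bl_mono replicate 3 stood apart. It had 10 or more counts for 4014 genes, against 6865 to 9954 in the normal libraries and 9462 and 10654 in the other NMO libraries. CPM values are read counts scaled to library size with edgeR's TMM factors, except in the shares at the floor, which use library size alone. Of the 1606 genes at 50 CPM or more by library size in the other 5 libraries, 229 (14.3%) held 3 counts or fewer in it, a level used below as the floor. In the remaining libraries this share was 0% to 0.454%. Values are therefore given with and without this library, and libraries are listed in the order of replicates 1, 2 and 3. Intervals of fold changes come from the spread between libraries, whereas floors cover counting error only.

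**Figure D1:**
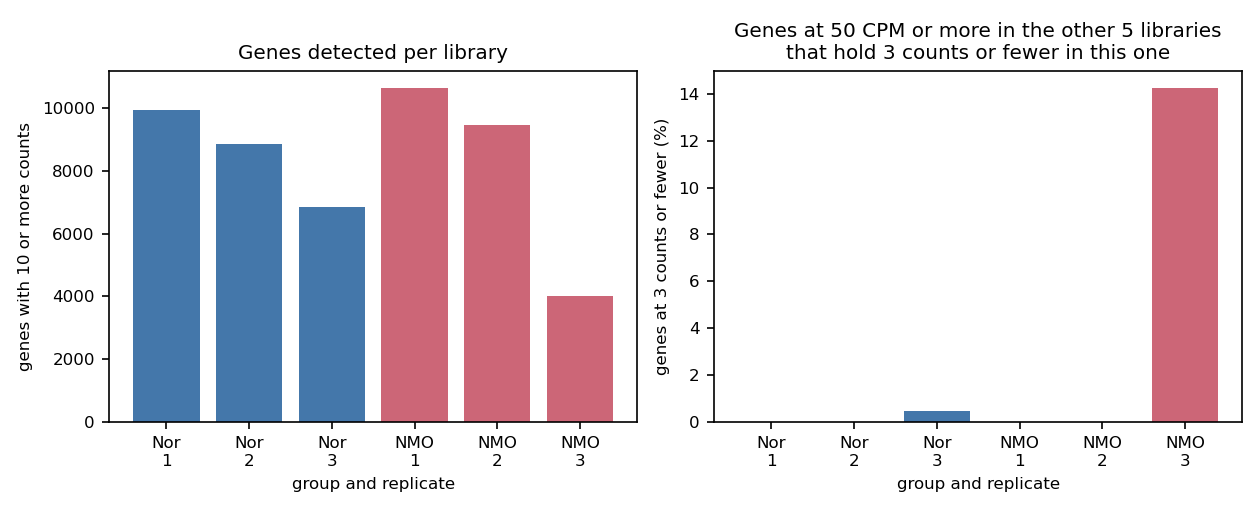
Bars give, for each of the 6 blood libraries (Nor and NMO, replicates 1 to 3), the number of genes with 10 or more counts (left) and the percentage of genes at 50 CPM or more in the other 5 libraries that held 3 counts or fewer (right). The 50 CPM threshold is by library size alone. NMO replicate 3 has the fewest genes (4014) and misses 14.3% of the genes at that threshold, against at most 0.454% in the others.

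No gene differed between NMO and normal blood monocytes after correction over all genes. The edgeR quasi-likelihood test called 0 of 9265 genes (0%) at a Benjamini-Hochberg adjusted p under 0.05, the smallest adjusted p being 0.999. At the threshold the study used (unadjusted p under 0.05 and a fold change of 1.2), 22 genes were higher (0.237%) and 16 lower (0.173%). Scaling by library size alone gave 50 higher and 12 lower. DESeq2 called 3 genes higher (Blm, P2ry1 and Prtn3) and 2 lower (L3mbtl2 and Chit1) at an adjusted p under 0.05, each of them at or near 0 counts in every library of a group. These 5 genes passed the filter on low counts only through the group in which they were high and so had to differ, and the calls are no support beyond the counts. limma-voom with sample quality weights called 0 after adjustment and had 257 genes at an unadjusted p under 0.05, with a weight of 0.0488 for NMO_Bl_mono replicate 3. Without that library edgeR again called 0 genes after adjustment, with 38 higher (0.41%) and 49 lower (0.529%) at the threshold of the study. Of the genes at an unadjusted p under 0.05 with all libraries, 18 kept that p and the same direction without it.

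The spread between libraries set how small a difference could be seen. The common dispersion was 2.39, and 1.27 without NMO_Bl_mono replicate 3. The 95% interval of the fold change lay within 2-fold in either direction for 162 genes and within 4-fold for 1342. Without that library these numbers were 516 and 2738. For the remaining genes a difference of 4-fold was not excluded by the interval. Across genes, Spearman's rho between libraries was 0.665 to 0.765 within the normal group and 0.834 between NMO_Bl_mono replicates 1 and 2. Pairs between the groups had 0.686 to 0.849 when NMO_Bl_mono replicate 3 was left out. That library had 0.478 to 0.514 with each other library. These correlations are over genes, which are not independent replicates.

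**Figure D2:**
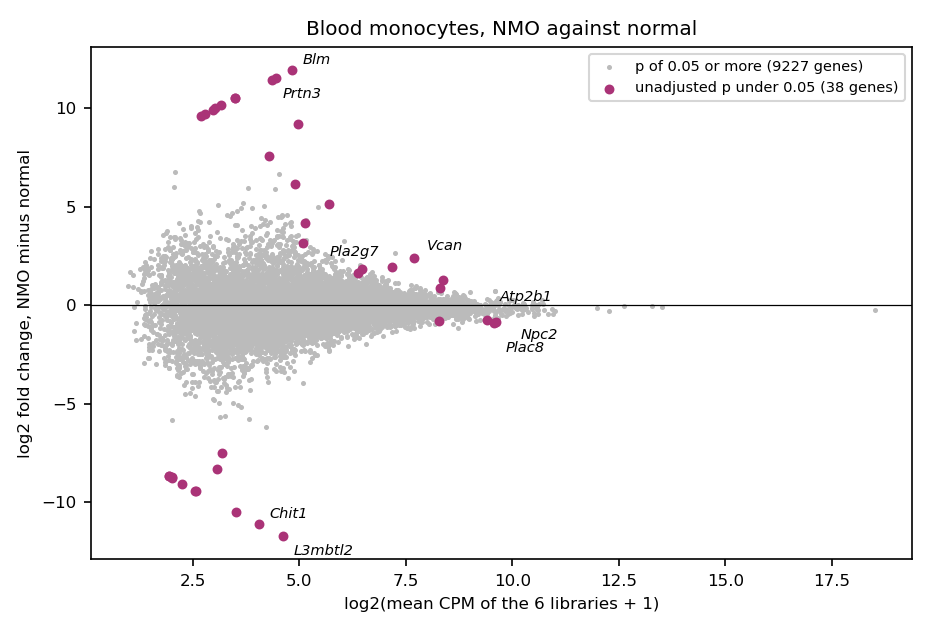
Each point is 1 of 9265 genes, with log2 of the mean CPM of the 6 libraries plus 1 on the x axis and the log2 fold change (NMO minus normal) on the y axis. The 38 genes at an unadjusted p under 0.05 include weakly expressed genes at fitted changes near 10 in either direction, where a group was at 0, and a few abundant genes such as Vcan (2.39) and Plac8 (-0.91).

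Among well expressed genes, Vcan led the comparison. It encodes versican, a matrix proteoglycan that classical monocytes make in quantity. Vcan (chr13:89655309-89743027, RefSeq on GRCm38.p6) was at 112, 51.4 and 35.2 CPM in the normal libraries and at 347, 373 and 322 CPM in the NMO libraries. All 3 NMO libraries lay above all 3 normal ones, replicate 3 included. The log2 fold change was 2.39 (SE 0.53, 95% interval 1.18 to 3.60), or 5.24-fold between the mean CPM, with an unadjusted p of 0.00152 and an adjusted p of 0.999 (edgeR). Without NMO_Bl_mono replicate 3 it was 2.44 (SE 0.49). Its unadjusted p was under 0.05 under all 19 other settings tried, with log2 fold changes of 2.09 to 3.01, and its adjusted p ran from 0.234 (DESeq2) to 1. In the monocytes of the NMO brain, scaled over all 9 libraries, Vcan was at 1084, 459 and 241 CPM.

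Pla2g7 showed the same order of the groups. It encodes the phospholipase that hydrolyses platelet-activating factor. Pla2g7 (chr17:43567994-43612202) was at 42.4, 32.7 and 101 CPM in the normal libraries and at 193, 134 and 358 CPM in the NMO libraries. The groups did not overlap, and replicate 3 was the highest of each group. Its log2 fold change was 1.96 (SE 0.64, 95% interval 0.51 to 3.42, unadjusted p 0.0138, adjusted p 0.999), and 1.48 (SE 0.54) without NMO_Bl_mono replicate 3. As for Vcan, the unadjusted p was under 0.05 under all 19 other settings. Both genes were picked by their p from the libraries that these settings reuse, so the settings are no separate support.

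The largest fitted differences belonged to genes without reads in a whole group. Of the 38 genes at an unadjusted p under 0.05, 23 were among the 26 tested genes that held 3 counts or fewer in every library of a group. Prtn3 (chr10:79879667-79883174) encodes proteinase 3, a serine protease that is stored in the granules of immature myeloid cells. It had no count in the normal libraries and was at 6.29, 13.1 and 98.8 CPM in the NMO libraries, at least 112-fold higher against a floor of 3 counts per library, and at least 27.6-fold without NMO_Bl_mono replicate 3. Blm, a DNA helicase of the RecQ family, had no count in the normal libraries and was at 4.61, 29.0 and 131 CPM in the NMO libraries. P2ry1, an ADP receptor of platelets, was at 0.287, 0 and 0 CPM against 1.96, 34.5 and 144 CPM. In all 3 genes NMO_Bl_mono replicate 3 was the highest library, and the other NMO libraries were above every normal library, as the filter required. The same library held 119 CPM of the glycophorin gene Gypc, 228 of Unc50, 52.6 of Zmat1, 98.1 of Ebpl, 58.5 of Pop1, 159 of Fam19a3 and 132 of Trap1. In these 7 genes the other NMO libraries lay between 1.41 and 48.5 CPM, and unadjusted p-values without replicate 3 were 0.0555 to 0.332.

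Among the genes ranked as lower, L3mbtl2, Chit1 and Aldh1a2 had reads in every normal library and in no NMO library. They too passed the filter only through the group in which they were high, and so had to differ. L3mbtl2 encodes a chromatin protein of a Polycomb complex. It was at 26.4, 12.3 and 103 CPM in normal blood and at 0 in NMO blood, at least 140-fold lower by the floor. Chit1, the chitinase that macrophages secrete, was at 8.62, 9.51 and 75.4 CPM against 0, at least 92.1-fold lower. Aldh1a2, an enzyme of retinoic acid synthesis, was at 14.4, 16.7 and 31.3 CPM against 0, at least 61.4-fold lower. Normal replicate 3 was the highest of its group in all 3 genes, and without it the bounds were 57.2-fold, 26.8-fold and 45.9-fold. Chit1 and Aldh1a2 also had no count in the 3 libraries from the NMO brain. Rpusd2, Itpripl1 and Slc9a9 were also lower in every NMO library. Slc9a9, a sodium-proton exchanger of endosomes, was at 63.8, 65.5 and 84.1 CPM against 22.2, 12.7 and 2.35 CPM.

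**Figure D3:**
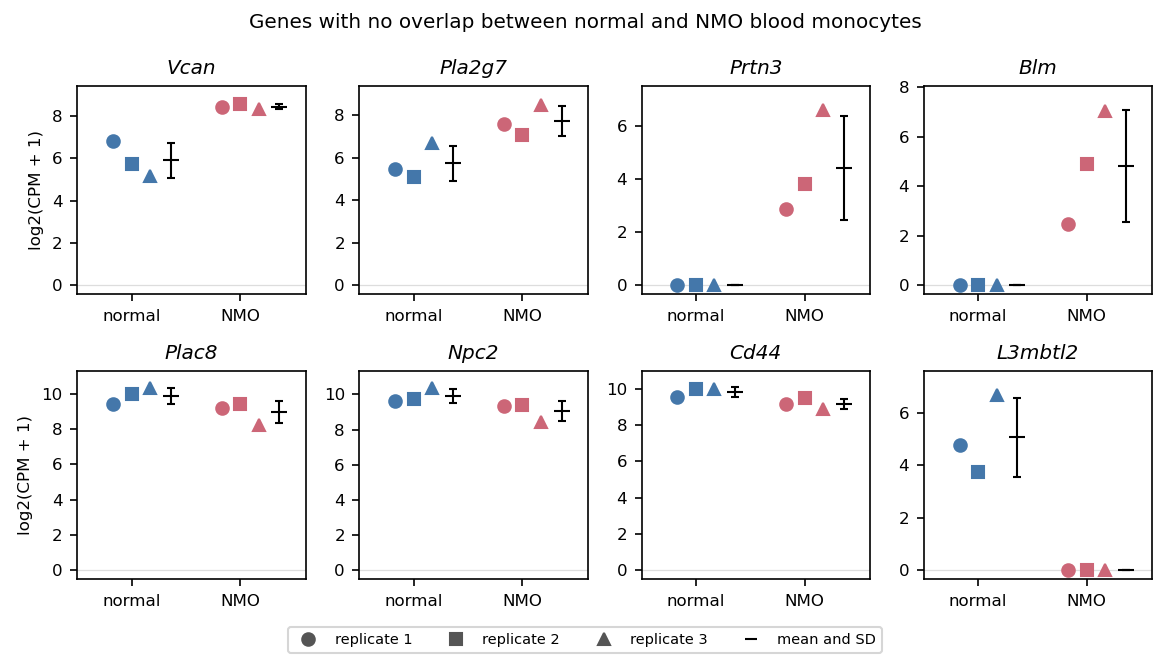
Points give log2(CPM + 1) of 8 genes in each normal (blue) and NMO (red) library, with marker shapes for replicates and bars for the mean and SD of 3 libraries. Vcan and Pla2g7 are higher and Plac8, Npc2 and Cd44 lower in every NMO library, while Prtn3 and Blm are at 0 in all normal libraries and L3mbtl2 at 0 in all NMO libraries.

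Several abundant genes were also lower in every NMO library, Plac8, Npc2, Atp2b1 and Cd44 by 1.58- to 1.88-fold between mean CPM. Plac8 (chr5:100551589-100572253), a small cysteine-rich protein of myeloid and lymphoid cells, was at 678, 1002 and 1269.7 CPM in normal blood and at 589.7, 677 and 300.5 CPM in NMO blood. Its log2 fold change was -0.91 (SE 0.39, unadjusted p 0.0427, adjusted p 0.999), and -0.64 (p 0.0841) without NMO_Bl_mono replicate 3. Npc2, which carries cholesterol out of the lysosome, was at 799, 866 and 1342 CPM against 647, 675 and 338 CPM (log2 fold change -0.86, SE 0.36, p 0.0434). The calcium pump Atp2b1 was at 769.7, 886 and 879.8 CPM against 605, 541 and 380.3 CPM (-0.73, SE 0.30, p 0.0353). Cd44, the receptor for hyaluronan on leukocytes, was at 739, 1023 and 1015 CPM against 569.8, 707 and 481 CPM (-0.66, SE 0.29, p 0.0521). Ssb, an RNA-binding protein, and Trim25, a ubiquitin ligase of the RIG-I pathway, were at log2 fold changes of -0.83 and -1.16. In Plac8, Npc2, Atp2b1, Trim25 and Cd44, NMO_Bl_mono replicate 3 was the lowest library of its group, and without it Plac8, Npc2, Atp2b1 and Cd44 had log2 fold changes of -0.64 to -0.54 and unadjusted p-values of 0.0503 to 0.0874. Over all genes tested, the groups did not overlap in 232 genes with NMO higher (2.5%) and in 441 with NMO lower (4.76%). With 3 libraries against 3, an exact permutation test of a single gene cannot go below a p of 0.1.

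Of 16 classical monocyte markers, 0 were at the floor in 5 libraries and 2 (Cd14 and Cd177) in NMO_Bl_mono replicate 3. Of the 16 markers, all tested, 8 were higher and 8 lower in NMO blood, 1 each at an unadjusted p under 0.05 (Vcan higher, Plac8 lower) and 0 after adjustment. Their median log2 fold change was 0.06, against -0.18 over all genes tested, and 0.40 against 0.05 without NMO_Bl_mono replicate 3. Ccr2 was at 267, 409 and 236 CPM in normal blood and at 689, 666 and 89.1 CPM in NMO blood. Both NMO replicates 1 and 2 lay above every normal library, and replicate 3 lay below them. The log2 fold change was 0.66 (SE 0.66, p 0.338) with all libraries and 1.16 (SE 0.31, unadjusted p 0.00608, adjusted p 1) without replicate 3. Chil3, a chitinase-like protein of monocytes, was at 413, 372 and 407 CPM against 530.2, 961 and 376 CPM, a log2 fold change of 0.65 (SE 0.39) and 0.91 (SE 0.31, unadjusted p 0.0192) without replicate 3. Lyz2, the lysozyme of myeloid cells, overlapped between the groups, with log2 fold changes of -0.49 (SE 0.40) and -0.55 (SE 0.45) without replicate 3. F13a1, a clotting factor subunit made by monocytes, also overlapped, with -0.02 (SE 0.52) and 0.42 (SE 0.26). Ccr2 and Chil3 thus had positive log2 fold changes with and without NMO_Bl_mono replicate 3. Lyz2, Plac8 (-0.91 and -0.64) and Ly6c2 (-0.29 and -0.14) had negative ones both ways. For Ccr2 and Chil3, whether the groups overlapped and the size of p depended on that single library.

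Granule and calcium-binding proteins of young myeloid cells gave a median above 0. Of 15 members tested, 10 were higher and 5 lower, 1 of them (Prtn3) at an unadjusted p under 0.05, with a median log2 fold change of 0.45 (0.36 without NMO_Bl_mono replicate 3). S100a8, a subunit of calprotectin, was at 28.5, 7.92 and 20.1 CPM in normal blood and at 69.7, 138 and 0 CPM in NMO blood. It was the highest in NMO replicates 1 and 2 and had no count in replicate 3 (log2 fold change 1.88, SE 1.88, unadjusted p 0.344, and 2.47, SE 0.71, unadjusted p 0.00916 without that library). S100a9, the other subunit, was at 50.9, 26.0 and 1.63 CPM against 36.5, 0 and 125 CPM. It had no count in NMO replicate 2, where S100a8 was highest, and its log2 fold change was 1.04 (SE 2.01) with all libraries and -0.52 (SE 2.16) without NMO replicate 3. S100a4 and S100a6, its abundant relatives, overlapped, with log2 fold changes of 0.11 (SE 0.32) and 0.07 (SE 0.36). Other granule genes of granulocyte precursors, chosen after their values were seen, had few or no reads. Ctsg, Ltf and Ms4a3 had no count in any of the 6 libraries, Mpo had reads in 1 normal library (10.5 CPM), and Elane was at most 2.73 CPM.

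Non-classical markers were lower more often than higher, none past the test. Of 15 tested, 4 were higher (26.7%) and 11 lower, against 41.5% higher over all genes tested. Their median log2 fold change was -0.46, against -0.18 over all genes. Without NMO_Bl_mono replicate 3, 7 were higher (46.7%) and 8 lower, against 53.4% higher over all genes. The median was then -0.14, against 0.05. Nr4a1, the transcription factor of the non-classical subset, was at 544, 743 and 273 CPM against 437, 451 and 70.4 CPM. Cx3cr1, the fractalkine receptor, was at 321, 254 and 112 CPM against 202, 152 and 0.0902 CPM. Replicate 3 was the lowest library of both groups in both genes. Ace, which encodes an angiotensin-cleaving enzyme and was chosen after its values were seen, was at 47.6, 69.1 and 128 CPM against 27.8, 29.1 and 0 CPM, a log2 fold change of -2.10 (SE 1.69, unadjusted p 0.246), and of -1.52 (SE 0.62, unadjusted p 0.041) without NMO_Bl_mono replicate 3. At the floor in that library were 9 of the 15 markers.

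The sorting markers overlapped between the groups. Ptprc (CD45) was at 1542, 1892 and 1149 CPM in normal and 1677, 1846 and 1293 CPM in NMO blood, with a 95% interval of the log2 fold change of -0.56 to 0.70. Itgam (CD11b) was at 299, 391 and 329.9 CPM against 319.8, 309 and 350.2 CPM (-0.80 to 0.68). Ly6c2, a gene of the Ly6C antigen, was at 922, 933 and 462 CPM against 660.2, 737 and 492 CPM (-1.09 to 0.51). P2ry12, which microglia and platelets express and the sort excluded, was at 43.4, 35.0 and 0.919 CPM against 16.6, 0.868 and 0 CPM, and Ly6g was not analysed here. The microglial genes C1qa, C1qc and Fcrls had no count in any of the 6 libraries.

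Transcripts of other blood cells were found in both groups. The 16 NK cell markers summed to 5856, 4325 and 4757 CPM in the normal libraries and 5129, 5332 and 5809 CPM in the NMO libraries, and 16 of 16 were tested. The 16 classical monocyte markers summed to 4733, 6864 and 6237 CPM against 5716, 7610 and 3957 CPM. The NK sum was thus of similar size, and was the larger in Nor_Bl_mono replicate 1 and NMO_Bl_mono replicate 3. The libraries were sorted as monocytes, and which cells these reads came from was not tested. Granzyme A (Gzma) alone was at 1122 to 1602 CPM in normal and 1229 to 1798 CPM in NMO blood. Nkg7, a granule membrane protein of cytotoxic cells, was higher in every NMO library (413, 288 and 256 CPM against 459, 453 and 555 CPM; log2 fold change 0.62, SE 0.34, p 0.1). Platelet markers summed to 3745, 784 and 613 CPM in normal and 3199, 1096 and 664 CPM in NMO blood, and the erythroid markers to 4380.4, 1002 and 1745 CPM against 5491, 1684 and 2207 CPM. Replicate 1 was the highest of each group in both lists. B cell markers summed to 224, 7.29 and 13.2 CPM against 164, 43.8 and 32.7 CPM, again highest in replicate 1. Hdc, which makes histamine in basophils and mast cells, was at 42.1, 3.49 and 0 CPM against 41.6, 2.82 and 0 CPM. T cell markers summed to 269, 235 and 138 CPM against 186, 179.7 and 33.3 CPM, and neutrophil markers to 341, 263 and 62.0 CPM against 307, 290.3 and 125 CPM, lowest in replicate 3 of each group. The sum in NMO_Bl_mono replicate 3 was S100a9, and 6 of the 7 tested neutrophil markers were at the floor there. No member of these lists passed the test, and their part in the differences of other genes was not tested.

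Genes of the NF-kB pathway and its feedback varied more between replicates than between groups. NF-kB is the transcription factor that inflammatory signals release from its inhibitors, and Nfkbia, the inhibitor that NF-kB itself induces, is its first feedback. Nfkbia was at 9304, 8184 and 1737 CPM in normal and at 9056, 8229 and 1406 CPM in NMO blood, so replicate 3 of each group held far less than replicates 1 and 2. Its log2 fold change between the groups was -0.04 (95% interval -1.65 to 1.57). Nfkbiz, a nuclear co-regulator, was at 977, 1393 and 106 CPM against 1094, 921 and 36.7 CPM. Tnfaip3, which shuts the pathway off, was at 599, 585 and 261 CPM against 598, 606 and 367 CPM. Summed over the 23 members, the mean of replicates 1 and 2 was 4.18 times replicate 3 in the normal group and 5.55 times in the NMO group. Between the groups 6 members were higher and 17 lower, with a median log2 fold change of -0.13, and 20 higher and 3 lower with a median of 0.29 without NMO_Bl_mono replicate 3. The direction of the list thus turned with that library, and 0 members had an unadjusted p under 0.05 either way.

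Replicate 3 was the lowest library of both groups in 18 of 23 members of the NF-kB list, 8 of 14 inflammatory cytokines and 10 of 13 chemokines tested. Replicate 3 also had the most tested genes without a count in each group, 2321 in normal and 5017 in NMO blood. The other libraries had 124 to 767 such genes. The same share over all genes tested was not computed, so whether these shares are particular to the 3 lists was not tested. Ccl2 and Ccl6 were highest in replicate 3 of normal blood, and the genes described next were not chosen as targets of NF-kB. Cxcl2, a neutrophil attractant, was at 2456, 1146 and 68.2 CPM in normal and at 1873, 1914 and 0 CPM in NMO blood. Tnf was at 327, 288 and 0 CPM against 312, 339 and 0 CPM. Il1b was at 111, 123 and 0.102 CPM against 238, 305 and 0 CPM. For Il1b, replicates 1 and 2 of NMO blood were above those of normal blood and replicate 3 was at the floor in both groups. Its log2 fold change was 1.22 (SE 2.07, p 0.572), and 1.80 (SE 1.49, p 0.263) without NMO_Bl_mono replicate 3, an interval of -1.67 to 5.27. Nlrp3, the inflammasome sensor, was at 255, 218 and 57.7 CPM against 212, 228 and 0 CPM, and Clec4e, a lectin receptor for mycobacterial and dead-cell ligands, at 215, 273 and 20.1 CPM against 465, 389 and 0 CPM. Ccl3, chosen after its values were seen, was at 459, 355 and 54.8 CPM against 275, 275 and 3.43 CPM. The inflammatory cytokines as a list summed to 676, 701 and 227 CPM in normal and 804, 961 and 44.8 CPM in NMO blood, with 0 of 14 tested members at an unadjusted p under 0.05. Of these 14, 8 were at the floor in Nor_Bl_mono replicate 3 and 13 in NMO_Bl_mono replicate 3.

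**Figure D4:**
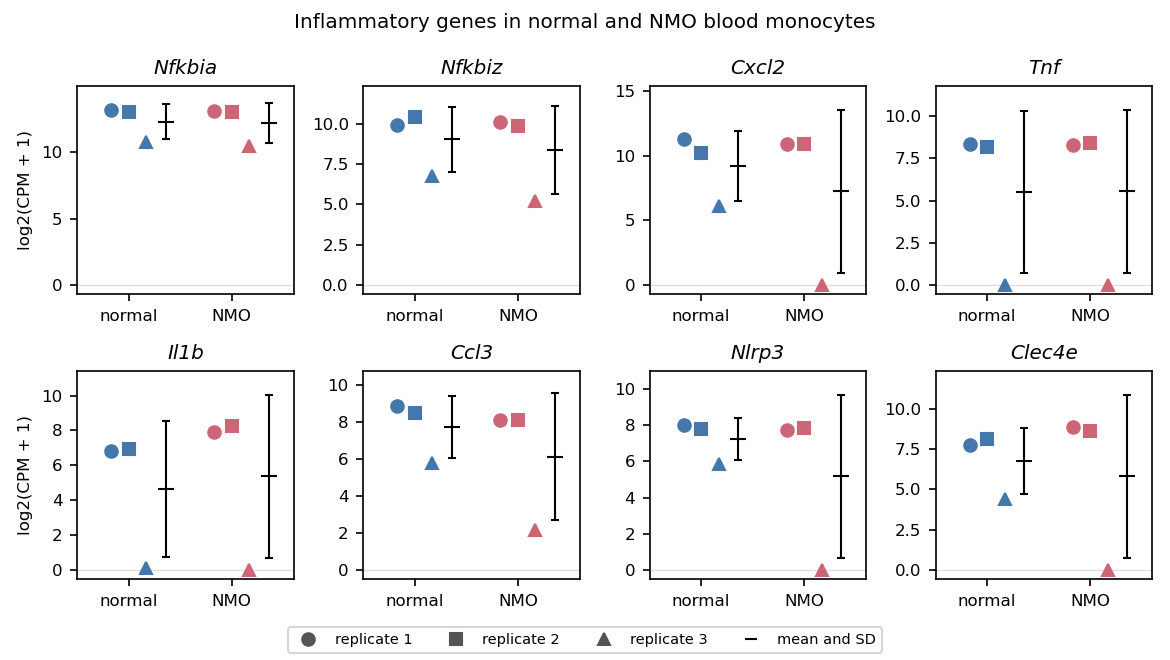
Points give log2(CPM + 1) of 8 NF-kB pathway and inflammatory genes in each normal (blue) and NMO (red) library, with marker shapes for replicates and bars for the mean and SD of 3 libraries. Replicate 3 (triangles) is the lowest of both groups in all 8 genes, and for Nfkbia replicates 1 and 2 lie at 9304 and 8184 CPM in normal and at 9056 and 8229 CPM in NMO blood.

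The promoters of Nfkbia and Cxcl2 are shown because both genes were low in replicate 3 of each group beside replicates 1 and 2. Each line gives the 250 bases before the RefSeq start site on GRCm38.p6, in the direction of the gene, with matches to a form of the NF-kB motif (GGG, any 2 bases, then TTTCC) on either strand in capitals. The Nfkbia window is chr12:55492648-55492897 on the minus strand and holds 1 match, and the Cxcl2 window is chr5:90903649-90903898 on the plus strand and holds 2 matches.
Nfkbia: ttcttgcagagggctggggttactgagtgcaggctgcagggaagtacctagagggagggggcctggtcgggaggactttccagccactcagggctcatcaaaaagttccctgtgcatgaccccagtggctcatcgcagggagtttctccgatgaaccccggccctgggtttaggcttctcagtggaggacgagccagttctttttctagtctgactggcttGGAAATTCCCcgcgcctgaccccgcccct
Cxcl2: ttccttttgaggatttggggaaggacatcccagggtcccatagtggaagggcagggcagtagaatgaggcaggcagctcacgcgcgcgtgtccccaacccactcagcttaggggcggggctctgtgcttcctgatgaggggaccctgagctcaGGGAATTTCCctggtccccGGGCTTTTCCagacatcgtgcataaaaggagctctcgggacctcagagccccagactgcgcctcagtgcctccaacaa
The first base of the match in Nfkbia lay 29 bases before the start site, and those in Cxcl2 lay 97 and 78 bases before it. Of 27025 genes with such a window, 447 (1.65%) held a match, and of the 7087 tested genes with a window 131 did (1.85%). The motif was found in 4 of 18 genes of the NF-kB list that had a window, 4 of 11 of the inflammatory cytokines and 3 of 9 of the chemokines. These lists were chosen with earlier results of these data known, and the first for its tie to NF-kB. Their shares are therefore no test against all genes. Tnf, Il1b, Ccl3 and Nfkbib were also lowest in replicate 3 of each group and held no match in this window. A match describes these letters only, not a bound site, and its relation to the level in replicate 3 was not tested.

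Of the 22 genes the study names for its monocyte libraries, 16 could be tested in blood, and none of the 16 had an unadjusted p under 0.05 with or without NMO_Bl_mono replicate 3 (edgeR; 0 after adjustment). There were 6 higher and 10 lower in NMO blood, with a median log2 fold change of -0.36 (0.09 without that library), and 11 of the 16 were at the floor in it. Ccl2, the ligand of Ccr2, was at 29.3, 15.8 and 71.6 CPM in normal and at 8.10, 8.57 and 0 CPM in NMO blood, lower in every NMO library (log2 fold change -2.81, SE 2.15, p 0.224). Il6st, the gp130 receptor subunit, was also lower in every NMO library, at 15.1, 16.9 and 19.0 CPM against 11.7, 12.3 and 0 CPM. Osm, the cytokine oncostatin M, was at 34.5, 46.0 and 24.9 CPM against 28.1, 27.7 and 0 CPM. Among receptors for uptake, Lrp1 was at 125, 206 and 204 CPM against 232, 245 and 196 CPM (95% interval of the log2 fold change -0.62 to 1.28), and Clec7a, which binds beta-glucan, at 219.6, 386 and 129.9 CPM against 198, 199.7 and 91.7 CPM. Cd14, the co-receptor for lipopolysaccharide, was at 198, 286 and 96.4 CPM against 239, 399 and 0 CPM. Arg1, the arginase of alternatively activated macrophages, was at 5.89, 0.106 and 0 CPM against 0, 1.19 and 144 CPM, so its reads in NMO blood came almost all from replicate 3. Ccl7, C1qa, C1qc and Fcrls had no count in blood.

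More genes of the type I interferon response were lower than higher in NMO blood, none past the test. Of 37 members tested 7 were higher and 30 lower in NMO blood, against 41.5% higher over all genes, with a median log2 fold change of -0.49 and 0 at an unadjusted p under 0.05. Without NMO_Bl_mono replicate 3, in which 22 members were at the floor, 13 were higher and 24 lower with a median of -0.23. Ifi27l2a, an interferon-induced mitochondrial protein, was at 160.1, 355 and 332 CPM against 175, 186 and 120.2 CPM (log2 fold change -0.82, SE 0.46, p 0.108). Ly6e, a surface protein, was at 876, 668 and 1059.7 CPM against 824, 709 and 536 CPM. The groups did not overlap in 3 of the 37, Ifit3, Oasl2 and Dhx58, all lower in NMO blood and chosen after their values were seen, against 4.76% of all genes tested. MHC class II genes were low in NMO_Bl_mono replicate 3 in particular. H2-Aa was at 861, 822 and 579 CPM against 723, 566 and 46.5 CPM, a log2 fold change of -0.76 (SE 0.75) with it and -0.23 (SE 0.28) without it.

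**Figure D5:**
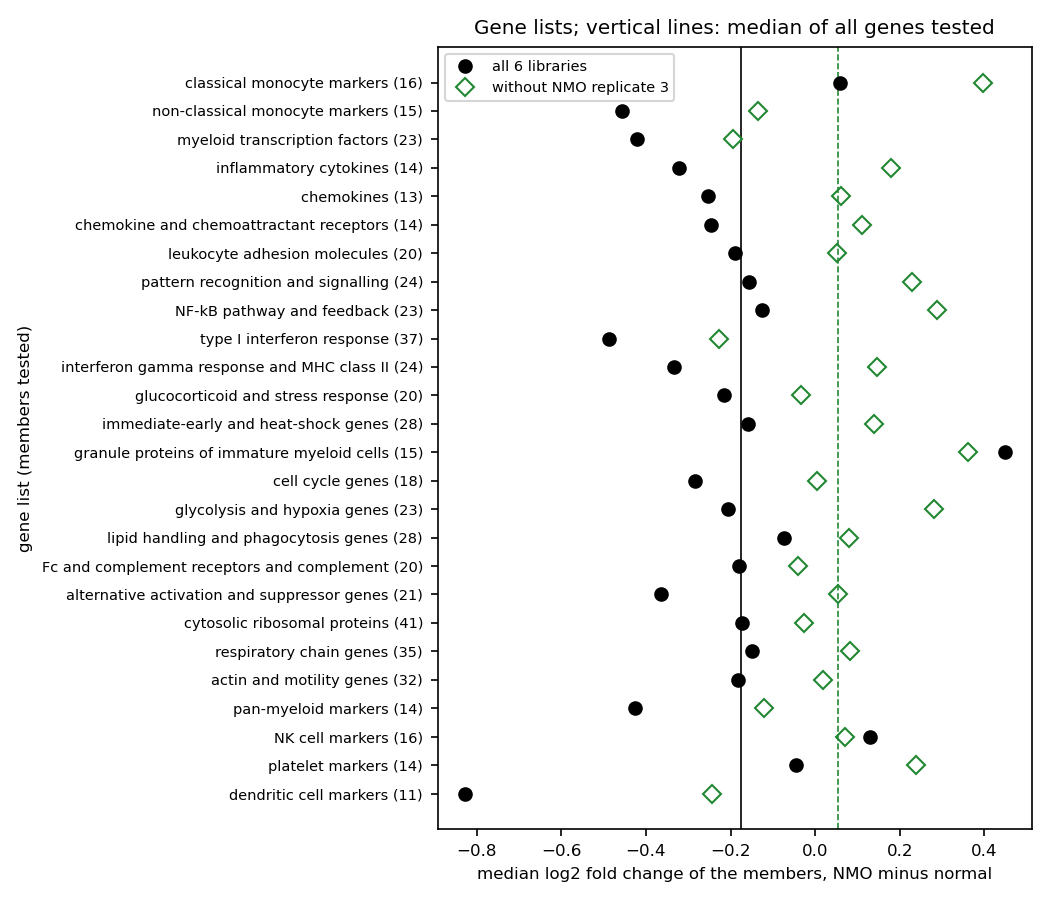
Each row is a gene list with 10 or more members tested (number in brackets), and the x axis gives the median log2 fold change of its members, NMO minus normal, with all 6 libraries (black) and without NMO replicate 3 (green). Vertical lines mark the medians of all genes tested, -0.18 and 0.05, and without replicate 3 every list but granule proteins and NK cell markers lies further to the right.

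Over the 33 lists with at least 3 tested members, 26 medians were below 0 with all libraries and 12 without NMO_Bl_mono replicate 3. The medians ran from -1.74 to 0.89 and from -1.16 to 0.59. Cytosolic ribosomal proteins, 41 of 41 tested and none of them at the floor in any library, had a median of -0.17, and -0.03 without that library. Respiratory chain genes had 13 higher and 22 lower (median -0.15), and 22 higher and 13 lower without it (median 0.08). Adhesion molecules had 1 higher and 19 lower, and 12 higher and 8 lower without it. Actin and motility genes, with Actb at 15511, 10242 and 10175 CPM against 16140.1, 13058 and 4504 CPM, had a median of -0.18 and 0.02. In all of these lists 0 members had an adjusted p under 0.05.

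The differences were bounded best in abundant genes. Malat1, a nuclear noncoding RNA, was at 9761, 9385 and 11206 CPM in normal and at 10631, 7889 and 11122 CPM in NMO blood, with a 95% interval of the log2 fold change of -0.51 to 0.44. H2-K1, a class I MHC gene, was at 1771, 1629 and 1666 CPM against 1363, 1436 and 1457 CPM, lower in every NMO library with an interval of -0.76 to 0.25. Irf8, a transcription factor of monocytes and dendritic cells, was at 1640.3, 1289 and 1557 CPM against 1275, 1427 and 1863 CPM (-0.56 to 0.61). Id2, Tpt1, Arpc2, Ahnak, B2m, Ankrd11 and Son had intervals within -0.91 to 0.44. For these genes a change of 2-fold in either direction lay outside the interval.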

How the data were processed

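RNA of sorted blood monocytes was sequenced as 3′ end libraries (QuantSeq, oligo-dT priming, single-end reads). Per the study's methods and the submitters' processing notes, the authors aligned reads to mm10 with Bowtie2 and used bedtools to count reads per gene, those with several alignments included. Versions, annotation and the handling of strand are not given in the sources used here, so antisense and near-identical genes (Ly6c1 and Ly6c2, H2-K1, Hba-a1) may share reads. The deposited values were raw counts per gene, with 35 symbols listed more than once.

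The 6 blood libraries entered the fit, and genes with 10 or more counts in at least 3 of them were tested with edgeR 4.0.16 (TMM, quasi-likelihood test, R 4.3.3) and Benjamini-Hochberg adjustment over all genes. CPM values carry TMM factors, except for the thresholds behind the shares of genes at the floor, which use library size alone. Intervals are 95%, and a floor is 3 counts per library. DESeq2 1.42.0, limma 3.58.1, other scaling, filters, a replicate block and leaving out each library were alternatives. Per the study's methods the pools were independent biological replicates. Gene symbols were matched to RefSeq (95.0%).

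Members and gene lists were chosen with earlier results of these data known. Named genes were those with the smallest p in each direction (up to 12 each) among genes whose groups did not overlap and whose higher group had a mean of 20 CPM or more, those with the narrowest intervals (10, at 100 CPM or more), the 4 members of each list with the highest CPM and any at an unadjusted p under 0.05, the sorting markers and the genes the study names.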

Additional observations from a re-analysis of the deposited data

How the results depend on the processing

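No gene reached an adjusted p under 0.05 in any edgeR or limma-voom alternative, whereas DESeq2 called 3 genes higher and 2 lower and gave no adjusted p for 177 genes. At the threshold of the study (22 higher and 16 lower), the genes called as higher were 50 with library sizes alone, 83 without a filter on low counts, 46 with the filter on all 6 libraries, 49 with DESeq2 and 152 with limma-voom. Lower calls were 30 without a filter, 26 with DESeq2 and 104 with limma-voom. Leaving out 1 library at a time gave 14 to 45 higher and 2 to 49 lower. The counts of higher and lower genes were 45 and 11 without Nor_Bl_mono replicate 1, 20 and 2 without replicate 2 and 22 and 10 without replicate 3, and 17 and 31 without NMO_Bl_mono replicate 1, 14 and 12 without replicate 2 and 38 and 49 without replicate 3. With NMO_Bl_mono replicate 3 left out, limma-voom gave 107 and 90, and edgeR with the filter set on the 5 remaining libraries gave 32 and 50, 2 alternatives chosen after seeing the data. Genes in which all NMO libraries lay above all normal ones numbered 1015 of the 9265 tested without that library, against 232 (2.5%) with it. Fewer libraries make this easier to reach, so the counts cannot be compared as a number of raised genes. In NMO_Bl_mono replicate 3 the share of genes at the floor was 6.40% among genes at 100 CPM or more, against 14.3% at 50 CPM, both by library size alone. The cause of the other changes was not tested.

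Replicate numbers are shared between the groups, but nothing in the labels ties same-numbered libraries. Their deviations from the group means correlated at 0.116, 0.008 and 0.072 for replicates 1, 2 and 3, and the main fit did not take the numbers as pairs. Some lists were alike by number, with NF-kB genes low in replicate 3 and platelet, erythroid and B cell markers highest in replicate 1 of both groups. Whether the numbers mark a shared batch was not tested. Replicates 1 and 3 correlated best with their own number, and replicate 2 did not. The fit with a replicate block gave 8 genes higher and 12 lower at the threshold of the study and 0 after adjustment.

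Among 159 named genes, 19 had an unadjusted p under 0.05, and 5 of them passed an adjusted p under 0.05 with DESeq2. All 19 kept their sign under every setting they could be fitted in. They were picked from these same libraries for groups without overlap and the smallest p, so a kept sign is no support. Of the 140 genes at a p of 0.05 or more, 23 had an unadjusted p under 0.05 in at least 1 setting (69 gene and setting pairs) and 85 changed sign at least once, so where such a gene is given as higher or lower this describes its libraries only. List medians were not stable in sign. Of 33 lists, 26 changed sign in at least 1 setting and 16 did without NMO_Bl_mono replicate 3. The median log2 fold change of all genes ran from -0.43 to 0.19 over the settings.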

Other observations

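Further gene groups, none with a member past the test after adjustment, gave the following values. Glycolysis genes had 11 members higher and 12 lower in NMO blood, with a median log2 fold change of -0.21, and 0.28 without NMO_Bl_mono replicate 3. Aldoa, the aldolase of glycolysis, was at 89.4, 141 and 91.1 CPM in normal and at 181, 243 and 72.8 CPM in NMO blood, a log2 fold change of 0.63 (unadjusted p 0.308), and of 0.98 (unadjusted p 0.0256, adjusted p 1, edgeR) without that library. Myeloid transcription factors had 4 members higher and 19 lower, with medians of -0.42 and -0.19.

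A few genes were chosen after their values were seen. Gimap4, a GTPase of lymphocytes, was at 310.0, 61.3 and 198 CPM in normal and at 429, 496 and 478 CPM in NMO blood (log2 fold change 1.30, unadjusted p 0.0401, adjusted p 0.999). S1pr1, the receptor by which leukocytes follow sphingosine-1-phosphate, was at 36.2, 43.0 and 67.3 CPM against 11.7, 9.01 and 0 CPM, lower in every NMO library, with a log2 fold change of -2.82 (unadjusted p 0.187), and of -2.23 (unadjusted p 0.031, adjusted p 1) without NMO_Bl_mono replicate 3. S100a11, a calcium-binding protein, was at 217, 166 and 214 CPM against 364, 344 and 183 CPM, a log2 fold change of 0.58 (unadjusted p 0.198), and of 0.83 (unadjusted p 0.0166, adjusted p 1) without that library. Wfdc17, a small secreted protein of activated macrophages, was at 102, 171 and 172 CPM against 173, 304 and 337 CPM (log2 fold change 0.87, unadjusted p 0.0893).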
